A study of Mus musculus with 2 samples.

Results

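A set of 5 microRNA genes that lie within genes of lipid and energy metabolism were followed in the liver of the mouse embryo. They were Mir33 in Srebf2, Mir107, Mir103-2 and Mir103-1 in the Pank1, Pank2 and Pank3 genes, and the microRNA gene Mir378a in Ppargc1b. They were chosen by name and by host gene, and make up 5 of the 1973 gene rows of the count tables. Mir378a was read from the row Gm25301, a gene annotated on the strand opposite Mir378a, through the reads that fell opposite it. The material was liver of B6NCrl embryos at day 13.5 from healthy animals, with male and female embryos pooled, from which small RNA below 30 bases was sequenced. There were 2 libraries from separate biosamples, numbered by the labels as biological replicates 1 and 2 and assigned there to the same donor entry. The labels describe a single condition and name neither a treatment nor an altered allele, so no conditions could be compared. The p-values given here compare these 2 libraries only.

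An intronic microRNA is cut out of the primary transcript of its host gene, so host and microRNA can be made together. Srebf2 encodes SREBP-2, the transcription factor that switches on cholesterol synthesis, and miR-33 represses the cholesterol exporter Abca1. The Pank genes encode pantothenate kinases, which catalyse the first step of coenzyme A synthesis, and miR-103 and miR-107 lower insulin sensitivity in adult liver and fat. Ppargc1b encodes PGC-1beta, a coactivator of genes of mitochondrial metabolism, and miR-378 acts on mitochondrial metabolism as well. The embryonic liver at this stage is the main site of blood formation and also holds immature hepatocytes. In bulk tissue, fewer cells of a type and less RNA per cell cannot be told apart.

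The mature sequences are shown because they decide which reads can be told apart. RefSeq (GRCm38.p6, the build mm10) held the hairpins of 4 of the 5 genes. Each mature sequence is written 5′ to 3′ with its seed, bases 2 to 8, in capitals.

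miR-33-5p: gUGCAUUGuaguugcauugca

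miR-33-3p: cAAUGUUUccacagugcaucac

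miR-107-3p: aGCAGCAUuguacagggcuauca

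miR-103-3p, the same from Mir103-1 and Mir103-2: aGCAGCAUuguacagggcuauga

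miR-107-5p: aGCUUCUUuacaguguugccuug

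miR-103-2-5p: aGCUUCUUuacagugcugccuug

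miR-103-1-5p: gGCUUCUUuacagugcugccuug

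The 3p seed GCAGCAU was shared by Mir107, Mir103-1 and Mir103-2, and by no other gene of the RefSeq table of 1005 hairpins, which is not complete. The same held for their 5p seed GCUUCUU. Neither seed of Mir33 occurred in another gene of that table. Within the 23 bases of the 3p sequence, miR-107 differed from miR-103 by G22C, the miR-103 base first, counted from 1 at the 5′ end. The first 21 bases of miR-107-3p were therefore found in both miR-103 hairpins. In the 5p sequence miR-103-1 differed from miR-103-2 by A1G, and miR-107 differed from miR-103-2 by C16U.

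The 3 Pank-hosted hairpins are shown whole, because most of the bases that separate them lie outside the mature sequences. Capitals mark the positions, among the 86 that were compared without gaps, at which the 3 are not all alike.

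Mir107: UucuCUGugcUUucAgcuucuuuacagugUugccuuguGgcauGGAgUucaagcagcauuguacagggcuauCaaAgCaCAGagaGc

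Mir103-2: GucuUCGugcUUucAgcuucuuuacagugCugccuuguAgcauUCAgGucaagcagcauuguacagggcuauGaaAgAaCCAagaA

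Mir103-1: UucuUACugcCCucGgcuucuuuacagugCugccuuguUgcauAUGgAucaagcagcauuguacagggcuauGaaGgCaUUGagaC

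Mir103-1 differed from Mir103-2 at 17 of 86 positions, of which 16 lay outside the mature sequences, 1 in the 5p sequence and 0 in the 3p sequence. Mir107 differed from Mir103-2 at 13 positions, of which 11 lay outside the mature sequences and 1 in each arm. The hairpins were 80.2% and 84.9% identical to Mir103-2 over these positions. Of the possible stretches of 22 bases, 57 of 65 in Mir103-1, 55 of 65 in Mir103-2 and 61 of 66 in Mir107 occurred in no other hairpin of the table, against 48 of 48 in Mir33. Among the 869 genes of the count tables with a RefSeq hairpin, 89.8% had only such stretches, and 9.32% had a mature sequence that occurred whole in another hairpin. Mir103-1 and Mir103-2 belong to these 9.32%.

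**Figure D1:**
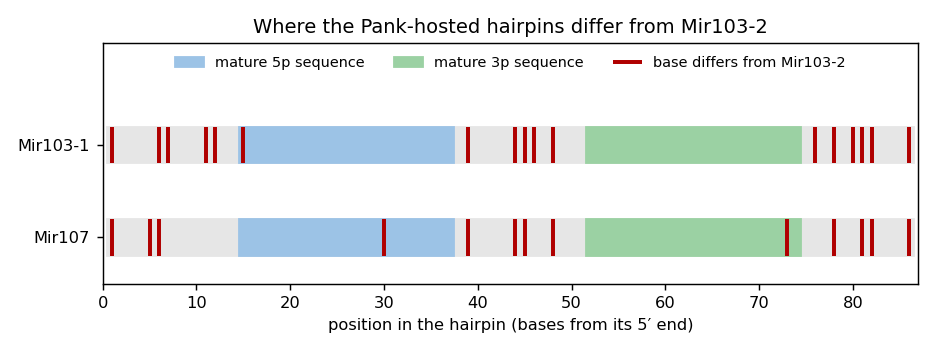
Positions along the hairpins of Mir103-1 and Mir107, counted in bases from the 5′ end, with the mature 5p and 3p sequences in colour and each base that differs from Mir103-2 as a red line. Mir103-1 has 0 red lines in its 3p sequence and 1 in its 5p sequence, and Mir107 has 1 in each.

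The tables leave reads that mapped to several places unassigned, 36.7% of 7671547 reads in replicate 1 and 32.0% of 12554684 in replicate 2. A whole miR-103-3p read matches both of its hairpins. The counts of Mir103-1 and Mir103-2 therefore set no limit on the level of miR-103, and neither their reads nor those of Mir107 can be assigned to an arm.

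All 5 genes lie in introns of their hosts, on the host strand (GENCODE M21, mm10). Mir33 (chromosome 15, 82198122 to 82198190, plus strand) lies in intron 16 of 18 of Srebf2. Mir107 (chromosome 19, 34820687 to 34820773, minus strand), Mir103-2 (chromosome 2, 131288052 to 131288137, plus strand) and Mir103-1 (chromosome 11, 35782396 to 35782481, plus strand) each lie in intron 5 of 6 of their Pank gene. The distance from the end of exon 5 to the hairpin was 326 bases in Pank1, 454 in Pank2 and 688 in Pank3, in introns of 7282, 5801 and 1740 bases. Mir378a (chromosome 18, 61397835 to 61397900, minus strand) lies in the first intron of Ppargc1b, 2389 bases past the first exon, in an intron of 76981 bases. Gm25301, the counted row, spans 61397813 to 61397925 on the plus strand of the same chromosome. The hairpin was intronic in 3 of 4 annotated coding transcripts of Srebf2 and in every coding transcript of the other 4 hosts.

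**Figure D2:**
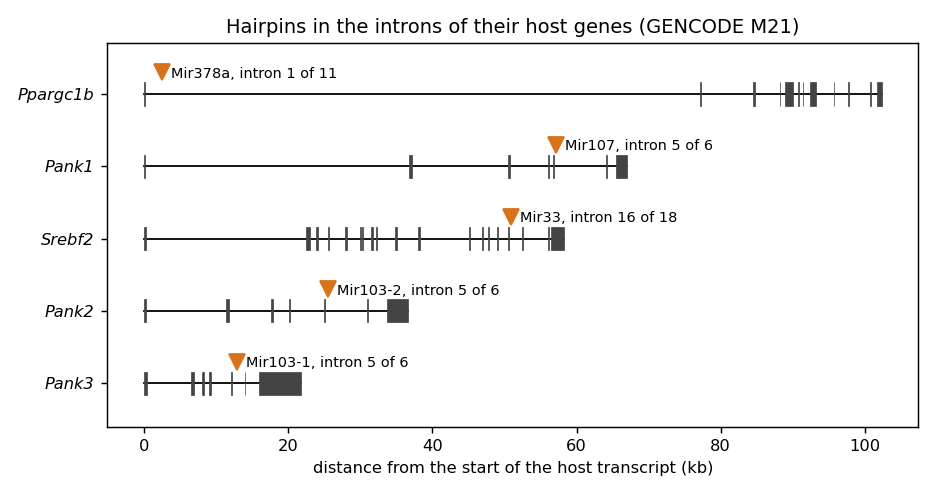
The 5 host transcripts drawn to scale from their start, in kb, with exons as dark boxes and the hairpin as an orange triangle. The 3 Pank hosts hold their hairpin in intron 5 of 6, and Ppargc1b holds it in intron 1 of 11, close to the start.

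On microRNA genes, both strands together, the libraries held 2909040 counts in replicate 1 and 4790617 in replicate 2, and levels are given as CPM, counts relative to these totals times 1000000. The hepatocyte microRNA Mir122 stood at 71640.2 ± 106 CPM (SD, n = 2), the endothelial Mir126a at 50174 ± 1932 CPM and the red cell microRNA Mir451a at 9635 CPM in replicate 1 and 23572 CPM in replicate 2, so markers of the labelled tissue were present. Myeloid Mir223 stood at 9038 ± 79.2 CPM, mesenchymal Mir143 at 16148 ± 660 CPM and skeletal muscle Mir206 at 624 ± 222 CPM. The other counted leukocyte markers were lower, with Mir155 at 145 CPM, Mir150 at 24.7 CPM and Mir142b, not detected, at 0.589 CPM. Mir142, also a listed leukocyte marker, had no row of its own, and reads opposite Mir142b were not examined. The level of miR-142 is therefore not given here. The other mesenchymal markers were lower than Mir143, with Mir214 at 1812 CPM, Mir145a at 257 CPM, Mir199a-2 at 19.9 CPM and Mir199a-1, not detected, at 1.62 CPM. Of the 6 counted striated muscle genes only Mir206, Mir208a and Mir499 were detected, while Mir133a-1 and Mir133a-2 had 0 counts and Mir1a-1 had 1 count in replicate 1 and 0 in replicate 2. With 2 libraries no exact two-sided test of a level can give a p below 0.5, so levels carry their SD and no p-value. Intervals describe counting error alone, because reads without molecular identifiers are not independent molecules.

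Reads at Mir378a were the most abundant of the 5 genes. The counts opposite Gm25301 were 30787 in replicate 1 and 44693 in replicate 2, which is 10583 CPM (95% exact Poisson interval 10465 to 10702) and 9329 CPM (9243 to 9416). The mean was 9956 ± 887 CPM, 24th of 1973 rows, and both libraries lay close to 1% of all counts, at 1.06% and 0.933%. In this ranking the other rows entered with reads on their own strand alone. Opposite all rows, Gm25301 included, lay 301637 reads in replicate 1 and 503875 in replicate 2. On the strand of Gm25301 itself there were 0 reads in both libraries, which allows up to 3 reads, or 1.03 CPM in replicate 1 and 0.626 CPM in replicate 2. All reads of this row thus lay on the strand of Mir378a and of its host Ppargc1b.

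The other miR-378 genes were rare beside it. Mir378c had 53 and 77 counts in replicates 1 and 2, Mir378d had 53 and 76, and Mir378b had 13 and 18. In replicate 1 these were 0.172%, 0.172% and 0.0422% of the count opposite Gm25301, and in replicate 2 they were 0.172%, 0.17% and 0.0403%. The share of each was thus nearly the same in both libraries. Mir378b, Mir378c and Mir378d lie on chromosomes 11, 14 and 10, and none lies in an intron of a protein-coding gene on its strand. Whether reads of Mir378a entered these rows was not tested.

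Of the Pank-hosted genes, Mir107 carried nearly all assigned reads. It had 5016 counts in replicate 1 and 7964 in replicate 2, which is 1724 CPM (1677 to 1773) and 1662 CPM (1626 to 1699), a mean of 1693 ± 43.7 CPM and place 79 of 1973. Its coefficient of variation between the libraries, 2.58%, was the lowest of the 5. Mir103-2, in Pank2, had 207 and 443 counts, which is 71.2 CPM (61.8 to 81.5) in replicate 1 and 92.5 CPM (84.1 to 101) in replicate 2. These 2 intervals did not overlap, and the mean was 81.8 ± 15.1 CPM, place 207.

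Mir103-1, in Pank3, had 5 counts in replicate 1 and 30 in replicate 2. Its level was 1.72 CPM (0.558 to 4.01) in replicate 1 and 6.26 CPM (4.23 to 8.94) in replicate 2, a mean of 3.99 ± 3.21 CPM, place 361. Together Mir107, Mir103-2 and Mir103-1 held 5228 counts in replicate 1, of which Mir107 took 95.9%, Mir103-2 3.96% and Mir103-1 0.0956%. In replicate 2 they held 8437 counts, with shares of 94.4%, 5.25% and 0.356%. These shares are of reads assigned to genes, and 2819005 reads in replicate 1 and 4017413 in replicate 2 mapped to several places. The part of miR-103 in those reads was not tested.

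Mir33, in Srebf2, was present at a modest level. It had 297 counts in replicate 1 and 445 in replicate 2, which is 102 CPM (90.8 to 114) and 92.9 CPM (84.5 to 102). The intervals of the 2 libraries overlapped, and the mean was 97.5 ± 6.51 CPM, place 202. No mature sequence of Mir33 occurred in another hairpin of the RefSeq table.

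**Figure D3:**
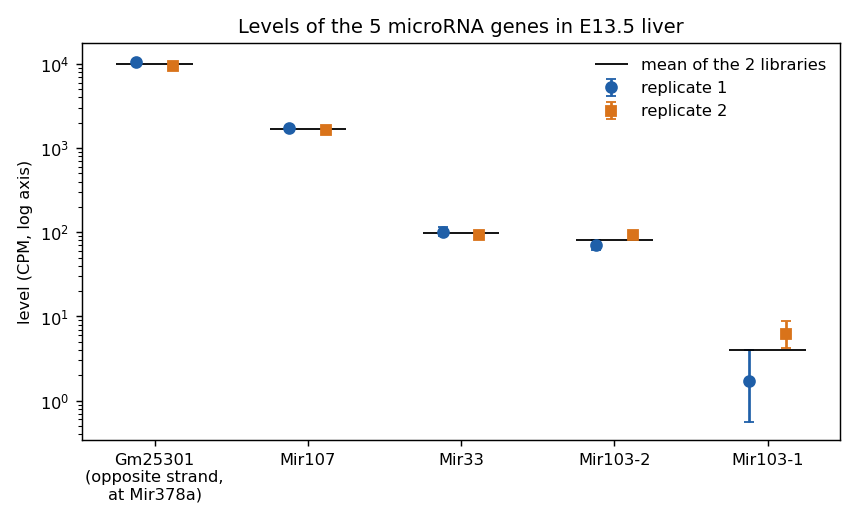
Level of each gene in CPM on a log axis, with replicate 1 as blue circles, replicate 2 as orange squares, exact 95% Poisson intervals as error bars and the mean of the libraries as a black line. Levels span 9956 CPM opposite Gm25301 to 3.99 CPM at Mir103-1, and the interval is widest for Mir103-1 in replicate 1.

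At least 10 counts in each library, the limit for calling a gene detected, were reached by 4 of the 5 genes, and Mir103-1 fell short with 5 counts in replicate 1. Of all 1973 rows, 368 were detected (18.7%), with a median of 136 CPM over these 368. Mir107 and the reads opposite Gm25301 stood above that median and Mir33 and Mir103-2 below it. The 5 genes together held 1.25% of counts in replicate 1 and 1.12% in replicate 2, of which the reads opposite Gm25301 made up 84.8% and 83.4%.

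The order of the levels was set by CPM without regard to length. A pair was ordered where both libraries had the order and the mean log2 ratio exceeded its SD. Levels per length are given beside it, since the hairpins run from 66 to 87 bases. Per 100 bases of hairpin the mean level was 15085 ± 1343 CPM at Mir378a, 1946 ± 50.3 CPM at Mir107, 141 ± 9.43 CPM at Mir33, 95.1 ± 17.5 CPM at Mir103-2 and 4.64 ± 3.74 CPM at Mir103-1. Without regard to length Mir378a exceeded Mir107 by 6.14-fold in replicate 1 and 5.61-fold in replicate 2. Per length it exceeded Mir107 by 8.09-fold and 7.4-fold with the Mir378a hairpin as its length. With the 113 bases of the counted row Gm25301, a choice made after seeing the data, it exceeded Mir107 by 4.73-fold and 4.32-fold. Whether counts of RNA below 30 bases depend on the length of the hairpin was not tested. Mir107 exceeded Mir33 by 16.9-fold and 17.9-fold without regard to length, and by 13.4-fold and 14.2-fold per length of hairpin. In assigned reads Mir103-2 exceeded Mir103-1 by 41.4-fold and 14.8-fold either way. Reads that mapped to several places are not among these, so the ratios set no order for the miR-103 made from each gene. Mir33 and Mir103-2 were not placed in order: without regard to length their mean log2 ratio, 0.26 ± 0.36, was smaller than its SD. Per length of hairpin Mir33 led by 1.79-fold in replicate 1 and 1.25-fold in replicate 2. The mean log2 ratio per length was 0.58, which exceeds that SD. In replicate 2 these 2 genes had 445 and 443 counts.

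The 2 libraries were then set against each other, replicate 2 over replicate 1. The exact binomial test of each gene's split of counts, with Benjamini-Hochberg adjustment over 712 genes with a count, called 145 genes (20.4%) at an adjusted p threshold of 0.05. Of the genes tested, 8.57% (61) were higher in replicate 2 and 11.8% (84) were lower there. Of the 5 genes 3 were called. These were Mir103-1 and Mir103-2 as higher and the reads opposite Gm25301 as lower. The power of this test rises with the count. When it was run on the 368 detected genes alone, 151 were called (41.0%), among them 2 of the 4 detected genes of the set, a share near that of the other genes.

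Mir103-1 differed most, with a log2 ratio of 1.87 (exact 95% interval 0.49 to 3.59; adjusted p = 0.0244, exact binomial test) on 30 counts in replicate 2 and 5 in replicate 1. Mir103-2 was higher by 0.38 (0.14 to 0.62; adjusted p = 0.0107, exact test), which is 1.3-fold. The log2 ratio of the reads opposite Gm25301 was -0.18 (-0.2 to -0.16; exact binomial test, adjusted p = 8.09e-63). That is 1.13-fold, the same as the median difference of 1.13-fold over the 368 detected genes. Mir33 had a log2 ratio of -0.14 (-0.35 to 0.08; adjusted p = 0.451, exact test) and Mir107 one of -0.05 (adjusted p = 0.161, exact test), and neither passed the threshold.

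The spread of the libraries beyond counting error, as a biological coefficient of variation over the 368 detected genes, was 13.1% (edgeR common dispersion). Of these genes 272 differed less between the libraries than Mir103-2, 187 less than the reads opposite Gm25301, 154 less than Mir33 and 60 less than Mir107. Summed markers of red cell precursors also differed between the libraries, 29560.1 CPM in replicate 2 and 16124 CPM in replicate 1 over 3 genes, all 3 detected. Only 1 of the 3, Mir451a, was higher in replicate 2, at 23572 CPM there and 9635 CPM in replicate 1. Mir144 stood at 5255 CPM in replicate 2 and 5741 CPM in replicate 1 (called lower, adjusted p = 1.82e-17, exact binomial test), and Mir486 at 733 and 747 CPM. Summed hepatocyte markers were 76406 CPM in replicate 2 and 75806 CPM in replicate 1 over 5 genes, all 5 detected. Their part in the differences of the 5 genes was not tested.

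**Figure D4:**
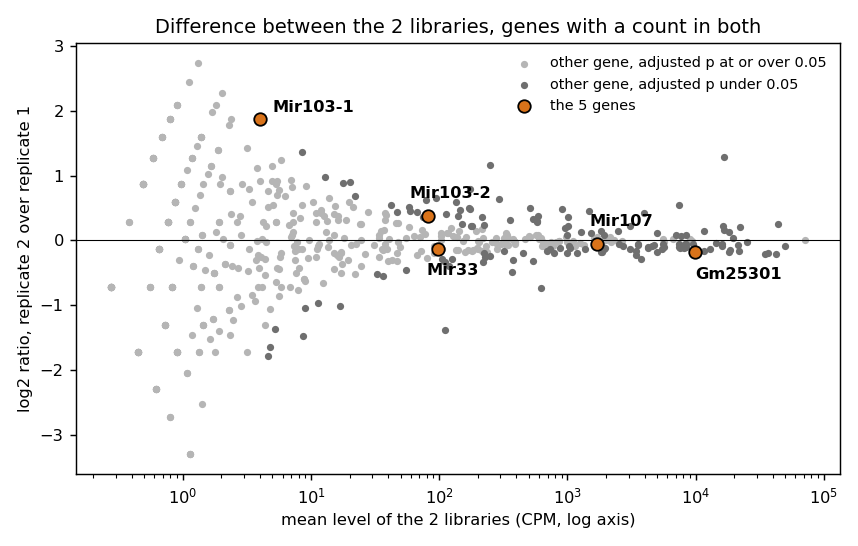
Log2 ratio of replicate 2 over replicate 1 against the mean level in CPM on a log axis, 1 point per gene with a count in both libraries, dark grey where the adjusted p was under 0.05 and the 5 genes in orange. Mir107, Mir33 and Gm25301 lie close to 0, Mir103-2 at 0.38 and Mir103-1 at 1.87 among other genes of low level.

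The relatives and pathway partners of the 5 genes were taken from 4 lists. The AGCAGC group comprises microRNAs with the motif AGCAGC near their 5′ end, many of which restrain the cell cycle, and includes Mir107, Mir103-1 and Mir103-2. Its 12 counted genes summed to 45004 ± 221 CPM, 4.5% of counts, and 9 of the 12 were detected. Mir322, of the X-linked Mir322 and Mir503 cluster, led with 25375 ± 256 CPM, followed by Mir15a at 7677 ± 281 CPM, Mir16-1 at 5603 ± 170.0 CPM and Mir15b at 2737 ± 125 CPM. Mir107 took place 5 of 12 with 3.76% of the sum, ahead of Mir16-2 at 965 ± 89.7 CPM. Mir103-2 held 0.182% of the sum and Mir103-1 0.00887%. Of the 11 with a RefSeq hairpin, 4 carry a mature sequence that occurs whole in another hairpin, namely Mir16-1, Mir16-2, Mir103-1 and Mir103-2, so their counts are uncertain. Between the libraries 8 of the 12 were called, 4 higher and 4 lower in replicate 2, beside 20.4% of all genes tested and 41.0% in the run on detected genes alone. Among those called was Mir103-1, which was not detected, and Mir195b had 0 counts and was not tested. The median log2 ratio of the group was 0.04 over its genes with a count. That median includes the undetected Mir103-1 at 1.87 and Mir497b at 1.28, whereas the median of -0.03 over all genes is of detected genes only.

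MicroRNAs that act on cholesterol export and uptake, through targets such as Abca1 and the receptors for LDL and HDL, formed a list of 15 genes, and 15 were detected. They summed to 56118 ± 1453 CPM, with a median gene at 629 CPM. Mir20a led at 22192 ± 2322 CPM, followed by Mir106b at 9674 ± 549 CPM, Mir223 at 9038 ± 79.2 CPM, Mir130b at 5531 ± 63.7 CPM, the red cell microRNA Mir144 at 5498 ± 344 CPM and Mir185 at 1842 ± 76.9 CPM. Mir33 took place 13 of 15 and held 0.174% of this sum. Between the libraries 6 of the 15 were called, 1 higher and 5 lower in replicate 2, a share near the 41.0% called when detected genes alone were tested. The median log2 ratio was -0.09, against -0.03 over all detected genes.

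The list of microRNAs tied to insulin action and glucose held 14 genes, of which 11 were detected. It summed to 20893 ± 558 CPM, of which Mir143 made up 77.3%. Mir107 took place 2 at 8.1% of the sum, ahead of Mir375, a microRNA of insulin-producing cells, at 1536 ± 80.0 CPM, Mir29a at 999 ± 96.4 CPM, Mir181b-2 at 153 CPM in replicate 1 and 342 CPM in replicate 2, and Mir29c at 114 ± 6.0 CPM. Mir103-2 followed Mir29c. Of the 13 with a RefSeq hairpin, 8 carry a mature sequence that occurs whole in another hairpin. Between the libraries 7 of the 14 were called, 5 higher and 2 lower in replicate 2, beside 20.4% of all genes tested and 41.0% in the run on detected genes. Mir103-1, not detected, was among those called. The median log2 ratio was 0.03 over all 14 genes, detected or not, whereas the median of -0.03 over all genes is of detected genes only. The miR-378 family summed to 9995 ± 890.4 CPM, of which the reads opposite Gm25301 made up 99.6%, and 1 of its 4 genes was called, beside the same 20.4% and 41.0%.

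**Figure D5:**
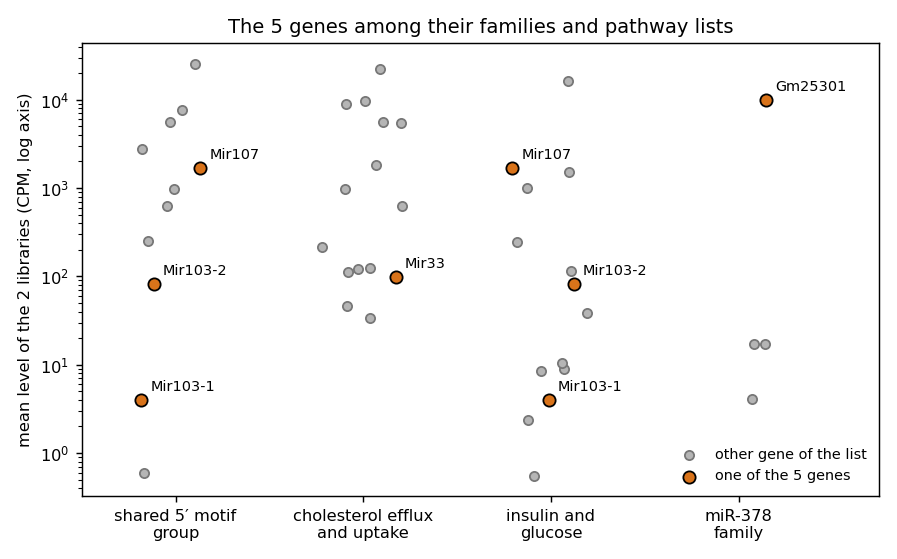
Mean level of the libraries in CPM on a log axis for each gene with a count in the 4 lists, with the 5 genes in orange and other list genes in grey. The column of the shared 5′ motif is the AGCAGC group, in which Mir107 takes place 5 of 12; it takes place 2 of 14 in the insulin list, Mir33 takes place 13 of 15 in the cholesterol list, and Gm25301 (opposite strand) stands far above the other miR-378 genes.

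Genes most like each of the 4 detected genes were taken by the distance of log2 CPM over the 2 libraries. The reads opposite Gm25301 stood nearest to Mir106b in Mcm7 (distance 0.07), Mir22 (0.12) and Mir154 (0.18). Nearest to Mir107 were Mir300 (0.08), Mir181c (0.12) and Mir185 in Tango2 (0.17). Nearest to Mir103-2 were Mir362 in Clcn5 (0.17), Mir224 in Gabre (0.19) and Mir30c-1 in Nfyc (0.21). Mir33 stood nearest to Mir3072 (0.05), Mir302d (0.1) and Mir293 (0.14). With 2 libraries this likeness is almost wholly one of level.

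An intron of a protein-coding gene on the same strand, with Mir378a placed by its own strand, held 689 of the counted genes. Of these 138 were detected (20.0%), with a median of 95.5 CPM over the detected ones and 32.3% ± 1.31 of all counts. Of 1205 other annotated genes 230 were detected (19.1%), with a median of 160 CPM over the detected ones and 58.2% ± 1.12 of counts. Named after their values were seen, the leading genes among the 689 are given here as a description. The reads at Mir378a took place 7, behind Mir126a, Mirlet7g, Mir335, Mir26b, Mir30e and Mir93, the last at 16352 ± 1787 CPM in Mcm7. All rows but Gm25301 were placed by reads on their own strand alone. Mir107 took place 26, Mir33 69, Mir103-2 71 and Mir103-1 135. Mir33 and Mir103-2 thus lay near the median of detected intronic genes, and Mir107 and Mir378a well above it. Host transcripts were not measured in these small RNA tables.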

How the data were processed

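The deposited tables hold raw counts per gene on mm10 with GENCODE M4, per the labels and the deposited file lists; the sources used here name neither aligner nor counting program. The authors' tables give reads on both strands together, on the strand of the gene and on the opposite strand, and the first was the sum of the others in all 1973 rows. Rows for unmapped, multiply mapped (above) and unassigned reads were left out of totals. Of the rows, 1894 matched GENCODE M21 by identifier. Counts from the gene's own strand (for Gm25301, from the opposite strand) were scaled to CPM by the total over both strands, since that total holds the reads of all 5 genes.

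Libraries were compared with a two-sided exact binomial test, tried on simulated counts with counting error alone (scipy 1.17.1, Python 3.11.15). Those counts lack the spread beyond counting error, so they do not show how the test behaves under it. No edgeR group test was possible with 1 group; edgeR 4.0.16 and DESeq2 1.42.0 gave dispersion and alternative scalings, and matplotlib 3.10.9 drew the figures. Stretches of 22 bases were compared among 1005 RefSeq hairpins, not over the genome. Named genes were the 5, up to 6 detected genes of each list, the 3 nearest in level and 6 tissue markers. Other genes named (markers beside these 6, the leading intronic genes, and Mir503, Mir195a and Mir497b) were chosen after their values were seen. Members and lists were chosen with earlier results of these data known. Mir497 was not analysed here.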

Additional observations from a re-analysis of the deposited data

Results flagged for a closer look

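Reads outside the counts used above lay opposite rows other than Gm25301. Opposite all rows, Gm25301 included, lay 301637 reads in replicate 1 and 503875 in replicate 2. A small part of them lay opposite Mir497b, a row of the AGCAGC list. Replicate 1 held 796 reads opposite Mir497b and replicate 2 held 1264. Mir497b itself had 1 and 4 counts, and a count of 0 would allow 3. At 269 ± 6.92 CPM (SD, n = 2) the reads opposite Mir497b would rank between Mir503 at 618 CPM and Mir195a at 249.7 CPM in that list.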

How the results depend on the processing

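No paired analysis was possible because only 1 group exists. With the total of the strand of the gene as denominator, the 5 genes summed to 13212 CPM in place of 11833, and the AGCAGC group, the miR-378, the cholesterol and the insulin lists to 50252, 11159, 62663 and 23329 CPM, since that total is smaller. Relative to all reads of the tables, times 1000000, the 5 genes summed to 4500.3. Without each library in turn, the sum of the 5 ran from 11183 to 12482 CPM, and single genes moved by 0.937 to 1.57 times their mean without replicate 1 and 0.431 to 1.06 times without replicate 2. Both extremes, 1.57 and 0.431, were Mir103-1, at 6.26 CPM without replicate 1 and 1.72 CPM without replicate 2. Restricted to genes whose mature sequences occur in no other hairpin, the AGCAGC group fell to 30673 CPM, the insulin list to 4345 CPM and the miR-378 list to 38.3 CPM. The cholesterol list kept 55964 CPM. Gm25301, Mir15a and Mir143 were not compared with other hairpins and were left out there. After seeing the data, further list alternatives were chosen: without Mir322 the AGCAGC group held 19629 CPM, with the reads opposite Mir497b 45272 CPM, and without Mir144 the cholesterol list held 50619.7 CPM. TMM and DESeq2 scaling moved single genes by 0.999 to 1.01 times. The order of the 5 by value held per length of hairpin, per length of the counted row (chosen after seeing the data) and in each library alone, and detection ran from 4 to 5 of 5 with limits of 1 to 50 counts. The library test called 136 to 153 genes under its alternatives. The calls of the 5 held in each alternative run for them, where adjusted p (exact binomial test) ran from 0.0164 to 0.0235 for Mir103-1, which the detection limit leaves out, from 0.00473 to 0.0106 for Mir103-2, from 0.0948 to 0.673 for Mir107, from 0.329 to 0.594 for Mir33 and from 4.18e-63 to 2.43e-42 for the reads opposite Gm25301. Counting error was widest, relative to the level, for Mir103-1 in replicate 1, with 5 counts.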
